A study of Rattus norvegicus with 6 samples.

Results

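Txnip, 3 related arrestin-domain genes (Arrdc4, Arrdc3 and Arrdc2), the glucose-sensing factor gene Mlxipl with its partner gene Mlx, and the enzyme gene Pklr were followed in 3 INS-SMA libraries, from INS-1 cells that overexpressed alpha smooth muscle actin, and in 3 INS-MOCK libraries. INS-1 is an insulin-secreting line derived from a rat insulinoma, and actin was expressed from a lentivirus. The question was whether a higher level of Txnip came with higher levels of other targets of the factor that Mlxipl encodes. Txnip was selected on the size of its log2 fold change (log2FC) between these same libraries, and the others for their known link to it with results of that comparison in view, so the differences of these 7 genes are given as descriptions, without a test. Of the 7 genes, 6 had rows in the deposited table, 14 transcript rows in all, among 21553 genes. Mlxipl had no row under that symbol, and Arrdc2 was below the filter on low counts, which left 5 genes with a fold change.

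The labels give INS-SMA the genotype SMA overexpression and INS-MOCK the genotype wild type. The sources used here do not say whether INS-MOCK received a lentivirus, which promoter drove the actin gene, or whether the cells were 1 clone. The libraries held 24719503 to 39608609 counts. The human ACTA2 sequence, the overexpressed gene, was at 51072 ± 6224 CPM (counts per 1000000 in tested genes, TMM-scaled) in INS-SMA and at 5.78 ± 1.27 CPM in INS-MOCK (SD, n = 3 each). All 12 beta cell markers had rows. Their summed level was 3407 to 4502 CPM in INS-SMA and 34356 to 37158 CPM in INS-MOCK. Ins1, the larger part of the INS-MOCK sum, was at 1306 to 1664 CPM in INS-SMA and 21966 to 23701 CPM in INS-MOCK. The markers did not differ alike. Pdx1 was at 128 ± 20.9 CPM in INS-SMA and 268 ± 17.9 CPM in INS-MOCK, and Neurod1 at 239 ± 18.6 and 596 ± 27.2 CPM. For Iapp, Mafa and Slc2a2 the groups overlapped, and Iapp was under 2 CPM in 5 libraries. Markers of other cells were low, with summed levels of 11.7 to 13.2 CPM in INS-SMA and 13.7 to 16.9 CPM in INS-MOCK for 6 fibroblast genes, of which Pdgfra made up the larger part (Pdgfrb had no row). For 3 immune genes the sums were 2.52 to 3.23 CPM in INS-SMA and 0.743 to 2.20 CPM in INS-MOCK, for 2 liver genes 0.506 to 1.02 CPM in INS-SMA and 0.299 to 0.448 CPM in INS-MOCK, and for 4 endothelial genes 1.26 to 2.11 CPM in INS-SMA and 1.45 to 2.82 CPM in INS-MOCK. No listed marker was at 0 in all libraries. The part of the lower beta cell marker level in the values below was not tested. In such bulk samples, fewer cells of a type and less RNA per cell cannot be told apart.

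TXNIP is an arrestin-fold protein that binds and inhibits thioredoxin, lowers glucose uptake and promotes death of beta cells. Its gene is among the most glucose-responsive genes of islets. When glucose enters a beta cell and is phosphorylated, the factor ChREBP, encoded by Mlxipl, or its relative MondoA, encoded by Mlxip, pairs with MLX on carbohydrate response elements. Such an element holds paired E-box motifs at a fixed spacing, and a classic one lies in the promoter of Pklr, the gene of liver-type pyruvate kinase. Txnip and Arrdc4 are known as direct targets of this system. Arrdc2 and Arrdc3 belong to the same alpha-arrestin family, whose members act as adaptors of ubiquitin ligases at membrane proteins.

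Txnip (ENSRNOG00000021201, chromosome 2, 198683159 to 198686974, plus strand, coordinates of the deposited table) was represented by 1 annotated transcript row. It was at 2188, 2303 and 2358 CPM in the INS-SMA libraries, against 129, 123 and 139 CPM in the INS-MOCK libraries. All INS-SMA libraries lay far above all INS-MOCK libraries, and the spread within each group was small beside the gap. The raw counts were 36419, 50193 and 60621 in INS-SMA and 3131, 2742 and 3263 in INS-MOCK. The mean level was 17.5-fold higher, and the log2FC was 4.13 (SE 0.065). Of all counts assigned to a named gene, Txnip held 0.229%, 0.235% and 0.242% in INS-SMA, against 0.0125%, 0.0118% and 0.0136% in INS-MOCK. Of all 13363 tested genes, 441 had a larger log2FC. Among the 59 genes with a mean CPM at least as high as that of Txnip, Txnip included, 3 had a larger one. They were the transgene ACTA2 and the interferon-induced genes Mx2 and Rsad2. Since Txnip was selected on this log2FC and reached that mean CPM through INS-SMA, these ranks are a description only.

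**Figure D1:**
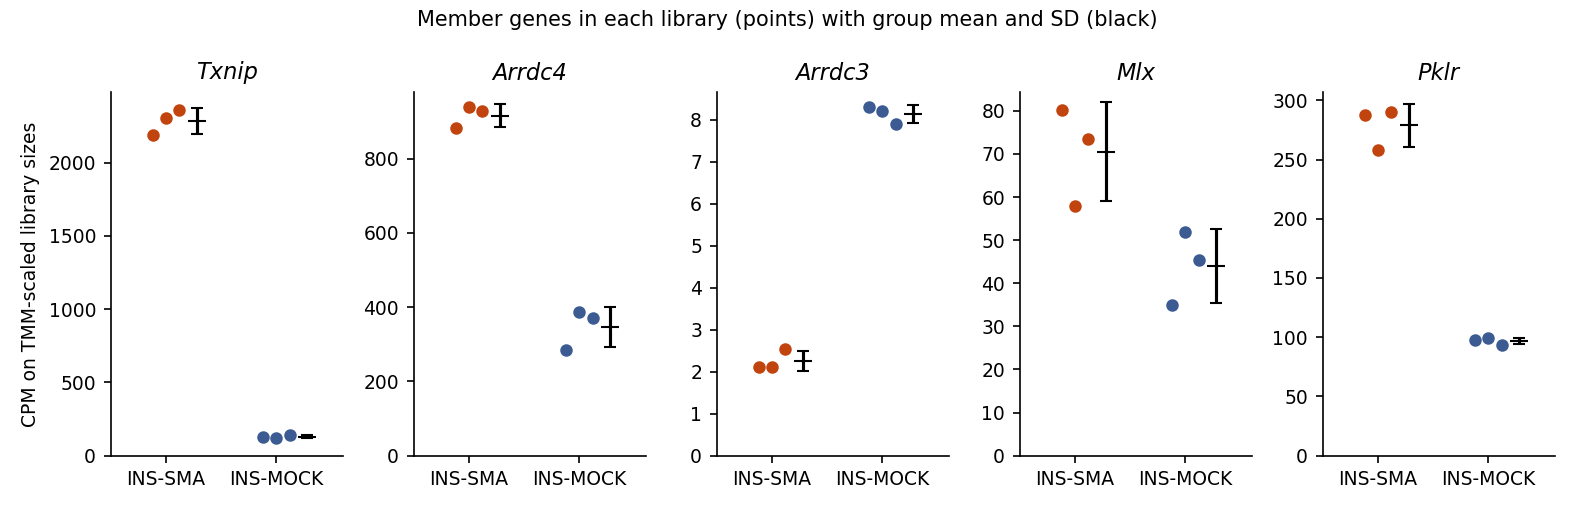
CPM on TMM-scaled library sizes of Txnip, Arrdc4, Arrdc3, Mlx and Pklr, with INS-SMA libraries left of INS-MOCK libraries in each panel; points are libraries, black marks are group means with SD (n = 3), and each panel has its own linear axis from 0. The groups do not overlap in any of the 5 panels, Arrdc3 is lower in INS-SMA and the other 4 genes are higher.

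Arrdc4 (ENSRNOG00000010775, chromosome 1, 129766100 to 129780356, minus strand) encodes an arrestin-domain protein close to TXNIP that likewise restrains glucose uptake. Its rows summed to 882, 939 and 927 CPM in INS-SMA, against 285, 386 and 370 CPM in INS-MOCK. The groups did not overlap. INS-MOCK replicate 1 was the lowest of the 6 libraries. The log2FC was 1.40 (SE 0.12), a 2.64-fold higher mean level, compared with 17.5-fold for Txnip. Without INS-MOCK replicate 1 the log2FC was 1.28.

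The counts of Arrdc4 were divided between an annotated transcript (ENSRNOT00000077479) and an assembled one (ENSRNOG00000010775.1), and a second annotated transcript held under 1%. The assembled row was at 660, 678 and 698 CPM in INS-SMA, against 224, 82.7 and 78.9 CPM in INS-MOCK. It held 74.9%, 72.2% and 75.3% of the counts of Arrdc4 in INS-SMA, and 78.7%, 21.4% and 21.3% in INS-MOCK. INS-MOCK replicate 1 was thus divided like the INS-SMA libraries and unlike the other INS-MOCK libraries. The annotated row ENSRNOT00000077479 was at 217, 256 and 224 CPM in INS-SMA and at 59.3, 302 and 290.5 CPM in INS-MOCK, so that the groups overlapped. From annotated rows alone the log2FC of Arrdc4 was 0.19 (SE 0.58), and in the assembled row, its most abundant one, 2.38 (SE 0.47). Whether reads were moved between these rows by the transcript quantification was not tested. The sum does not depend on that division.

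**Figure D2:**
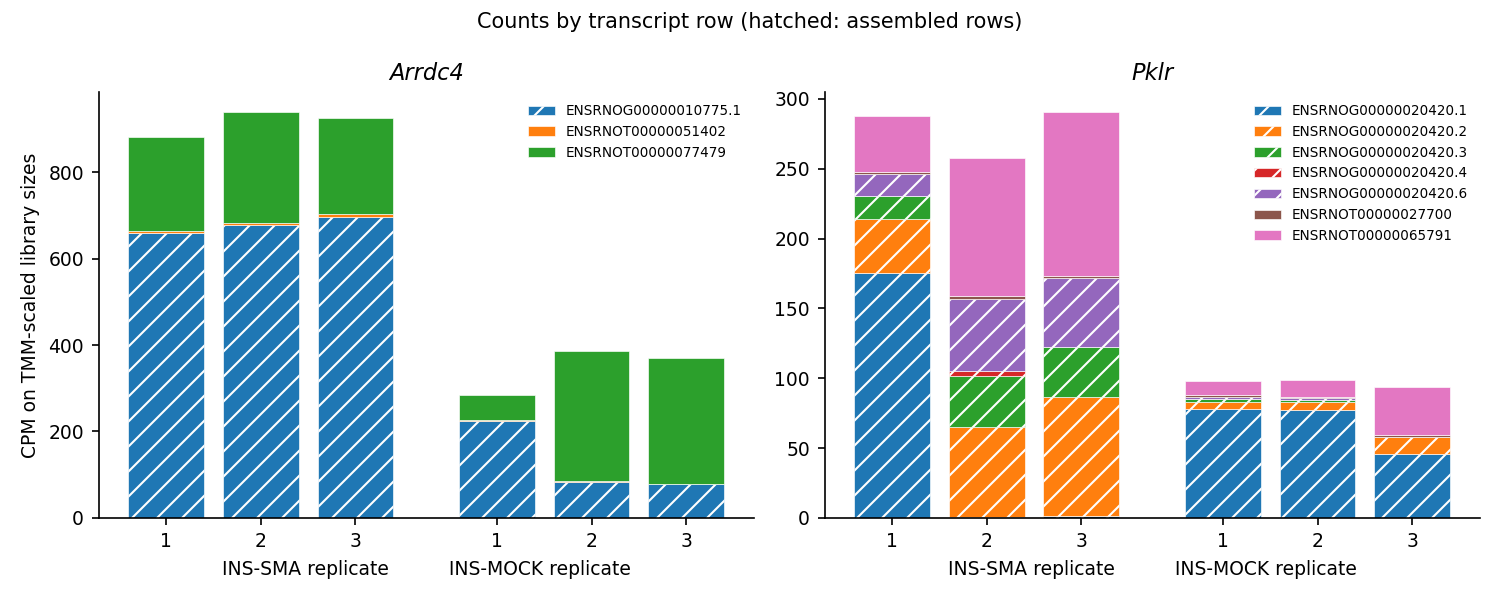
CPM of each transcript row of Arrdc4 (left) and Pklr (right), stacked, in the 3 INS-SMA and the 3 INS-MOCK libraries; hatched parts are assembled transcripts and plain parts annotated ones. The height of the stacks is similar within a group, while the division between rows is not, as in INS-MOCK replicate 1 for Arrdc4 and INS-SMA replicate 1 for Pklr.

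The sequence before the start of Arrdc4 is shown because this gene is known as a target of ChREBP and MLX and its promoter held CACGTG. A single CACGTG is not the paired element described above, and no match to that element was found in this stretch. Promoter sequences of 6 of the 7 genes were found in RefSeq (build GRCr8), all but Txnip, and the 250 bases before the start were searched on both strands. Letters searched were CACGTG (E-box) and CCAAT. The stretch shown lies at chr1:131793426-131793675 of GRCr8, minus strand, and capitals mark the matches.
Arrdc4: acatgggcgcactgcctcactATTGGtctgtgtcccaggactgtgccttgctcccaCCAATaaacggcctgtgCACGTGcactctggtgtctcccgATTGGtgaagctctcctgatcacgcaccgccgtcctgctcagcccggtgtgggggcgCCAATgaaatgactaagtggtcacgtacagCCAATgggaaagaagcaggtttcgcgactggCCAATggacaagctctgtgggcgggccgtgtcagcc
It held 1 CACGTG, from base -177 to -172 counted from the start, and 6 CCAAT boxes, 4 of them in the direction of the gene. Of 27457 promoters, 5.77% held CACGTG and 34.2% held CCAAT. A match is a run of letters, and binding was not measured here.

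Arrdc3 (ENSRNOG00000045649, chromosome 2, 8732932 to 8743069, plus strand), an adaptor known from its action on beta-adrenergic receptors, lay in the other direction. It was at 2.10, 2.11 and 2.53 CPM in INS-SMA, against 8.30, 8.20 and 7.91 CPM in INS-MOCK. All INS-SMA libraries were lower than all INS-MOCK libraries, at counts of 35, 46 and 65 in INS-SMA and 201, 183 and 185 in INS-MOCK. The log2FC was -1.85 (SE 0.17). Arrdc2 (chromosome 16, 20352480 to 20356612, plus strand) had 0, 0 and 4 counts in INS-SMA and 0, 9 and 0 in INS-MOCK. At this depth no difference of Arrdc2 could be seen, since 3 counts correspond to 0.117 to 0.180 CPM. The promoters of Arrdc3 and Arrdc2 held 1 and 2 CCAAT boxes and no CACGTG.

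Mlx (ENSRNOG00000019983, chromosome 10, 88997399 to 89002152, plus strand), the partner that ChREBP and MondoA need to bind DNA, was at 80.2, 57.9 and 73.5 CPM in INS-SMA, against 34.9, 51.9 and 45.5 CPM in INS-MOCK. The lowest INS-SMA library was close to the highest INS-MOCK library, and both were replicate 2 of their group. The log2FC was 0.68 (SE 0.19), the smallest of the 5, and leaving out 1 library gave 0.54 to 0.81. The last bases of Mlx overlap Psmc3ip on the other strand, and how the counting treated strand is not given in the sources used here, so reads there cannot be told apart. Psmc3ip fell, to 9.27 ± 1.07 CPM in INS-SMA, against 14.1 ± 2.05 CPM in INS-MOCK (log2FC -0.60, edgeR adjusted p = 0.0266). Mlxip, which encodes MondoA and was not among the 7 genes, fell slightly, to 48.5 ± 2.32 CPM in INS-SMA, against 60.8 ± 1.63 CPM in INS-MOCK (log2FC -0.33, SE 0.058, edgeR adjusted p = 0.00485; 0.739 from annotated rows only). No level can be given here for ChREBP itself. Reads of Mlxipl may lie in rows that name no gene, which took 32.7% to 36.7% of all counts in each library.

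The sequence before Mlx is shown as the other of the 6 promoters that held CACGTG. The stretch lies at chr10:86519636-86519885 of GRCr8, plus strand, and capitals mark CACGTG and CCAAT on either strand.
Mlx: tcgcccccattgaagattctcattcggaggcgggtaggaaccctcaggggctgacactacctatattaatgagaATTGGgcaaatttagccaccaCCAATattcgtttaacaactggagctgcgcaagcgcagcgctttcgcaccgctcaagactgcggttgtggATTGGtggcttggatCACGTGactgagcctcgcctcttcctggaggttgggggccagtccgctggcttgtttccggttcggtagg
The E-box lay from base -70 to -65 before the start, with 3 CCAAT boxes upstream of it.

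Pklr (ENSRNOG00000020420, chromosome 2, 188449210 to 188459592, plus strand) encodes the pyruvate kinase of liver and red cells, which beta cell lines also express and which is a classic glucose-responsive gene. Its 7 rows summed to 288, 258 and 290.5 CPM in INS-SMA, against 97.9, 99.1 and 93.6 CPM in INS-MOCK. The groups lay well apart and were tight, with coefficients of variation of 6.48% in INS-SMA and 2.97% in INS-MOCK. The mean level was 2.88-fold higher, and the log2FC was 1.53 (SE 0.059).

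The rows of Pklr were far less steady than their sum. An assembled row, ENSRNOG00000020420.1, held 60.9%, 0.142% and 0.361% of the counts of Pklr in INS-SMA, against 79.6%, 78.1% and 49.1% in INS-MOCK. INS-SMA replicate 1 was thus divided much like the INS-MOCK libraries. The annotated row ENSRNOT00000065791 was at 40.4, 99.3 and 117 CPM in INS-SMA, against 9.91, 12.2 and 34.1 CPM in INS-MOCK, and there the groups did not overlap. In the most abundant row taken alone the log2FC of Pklr was -0.22 (SE 2.03), whereas from annotated rows only it was 2.19 (SE 0.62). The span of Hcn3, a channel gene on the other strand, starts at 188454853 and so overlaps that of Pklr. Hcn3 rose as well, to 148 ± 26.4 CPM in INS-SMA, against 71.3 ± 0.98 CPM in INS-MOCK (log2FC 1.05, SE 0.13, edgeR adjusted p = 0.00120). Without a known strand setting, reads of Pklr and Hcn3 in the shared stretch cannot be told apart.

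The promoter of Pklr is shown because it carries the element through which glucose is known to act on this gene. The stretch lies at chr2:176841014-176841263 of GRCr8, plus strand, and capitals mark the element.
Pklr: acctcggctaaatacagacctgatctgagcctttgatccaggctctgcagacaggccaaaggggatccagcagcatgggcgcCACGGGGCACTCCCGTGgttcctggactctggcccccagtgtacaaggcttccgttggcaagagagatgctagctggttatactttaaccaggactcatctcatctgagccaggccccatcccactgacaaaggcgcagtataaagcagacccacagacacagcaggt
The capitals match an inverted pair of E-box-like motifs, CACGNG and CNCGTG set 5 bases apart, from base -168 to -152 before the start. Of 27457 promoters 6 held a match, 0.0219%. None of the other 5 promoters of these genes held it within 250 bases, which says nothing of elements elsewhere. The letters GTAAACA, bound by FOXO factors, and AGAACA followed after 3 bases by TGTTCT, bound by the glucocorticoid receptor, matched in none of the 6 promoters and in 3.25% and 0.00364% of all promoters.

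All 5 genes with a fold change passed edgeR's adjusted threshold of 0.05, 4 higher and 1 lower. Since the choice rested on this comparison, nothing is read from that count. Of all tested genes 55.1% passed, 28.1% higher and 27.0% lower. CPM of the groups did not overlap for these 5 genes, as for 65.3% of all tested genes. Over all tested genes the log2FC had a median of 0.03, and the median of its size was 0.73.

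Other genes listed as targets of ChREBP or MondoA were divided. Whether each of them is induced in beta cells was not tested. Of 32 such genes 27 were tested, and 11 rose, 3 fell and 13 did not pass, a share past the threshold of 51.9% beside 55.1% of all genes. The median log2FC of the list was 0.34, beside 0.03 for all tested genes. Angptl8, a secreted inhibitor of lipoprotein lipase, rose to 441 ± 5.80 CPM in INS-SMA, against 26.8 ± 0.85 CPM in INS-MOCK (log2FC 4.04, SE 0.040, edgeR adjusted p = 1.81e-06). Klf10, a transcription factor induced by glucose and by TGF-beta, rose to 2411 ± 44.3 CPM in INS-SMA, against 281 ± 8.62 CPM in INS-MOCK (3.10, SE 0.037, adjusted p = 2.01e-06). Bhlhe40, a repressor of clock genes, had a log2FC of 2.27 (SE 0.10) and Rgs16, a regulator of G protein signalling, of 1.34 (SE 0.051). In each of these 4 genes all INS-SMA libraries lay above all INS-MOCK libraries.

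Among the remaining genes of that list, named here after their values were seen, Slc2a4, the insulin-regulated glucose transporter gene, rose by 3.64 on the log2 scale to 39.5 ± 6.19 CPM in INS-SMA, against 3.15 ± 0.44 CPM in INS-MOCK. Gpd1, which makes glycerol phosphate for lipids, rose by 1.02. Fasn, the fatty acid synthase gene, rose by 0.25 (SE 0.047). Acly, which makes acetyl-CoA from citrate, fell by 0.60 (SE 0.056). Me1 (-0.07, and 0.02 without normalisation factors) and Tkt (-0.10), the most abundant genes of the list that did not pass, had edgeR adjusted p-values of 0.168 and 0.126. The p of Me1 ran from 0.0351, with unnamed rows in the library sizes, to 0.982 over the alternatives. Scd, Thrsp, Gckr, Mttp and Agpat2 were below the filter.

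**Figure D3:**
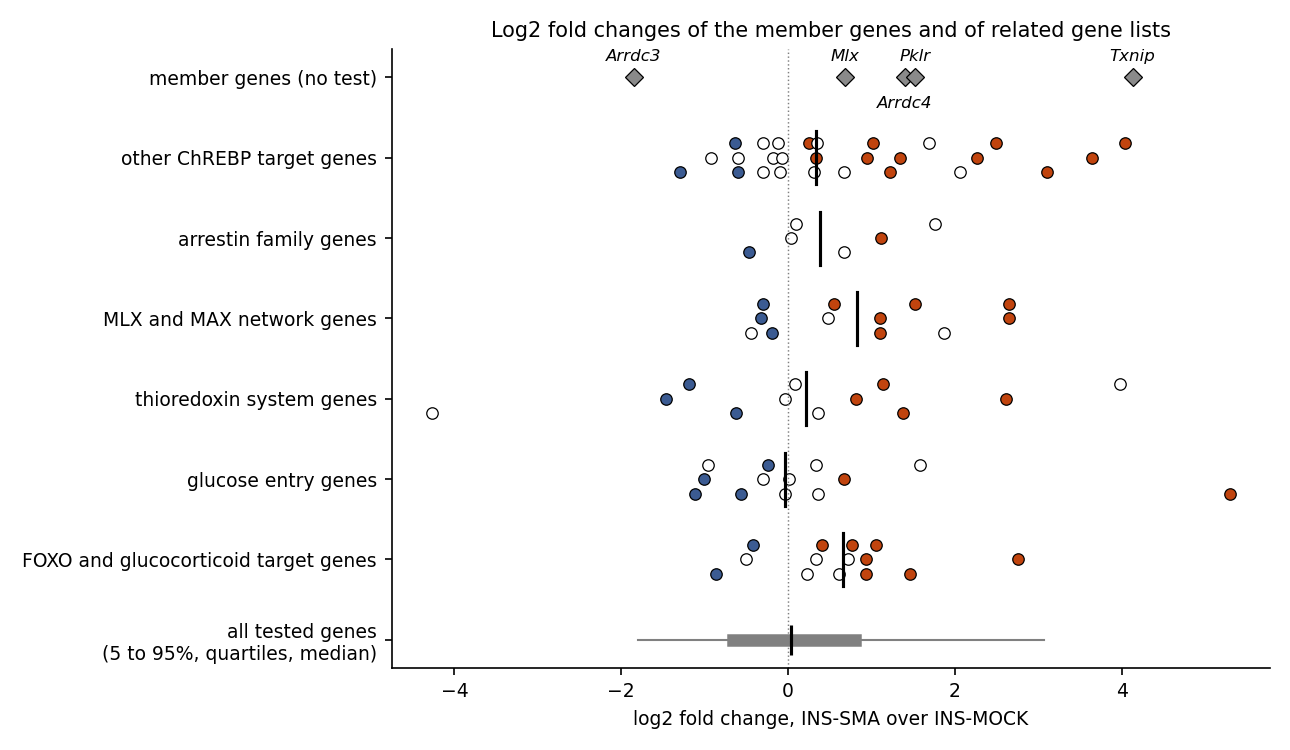
Log2 fold changes, INS-SMA over INS-MOCK, of the 5 genes with a fold change (grey diamonds, no test), of the tested genes of 6 related lists (circles; filled where the edgeR adjusted p was under 0.05, red higher and blue lower, open where not), and of all tested genes (median, quartiles and 5% to 95% range). Vertical strokes are list medians, which run from -0.03 for glucose entry genes to 0.82 for the MLX and MAX network.

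Of the wider arrestin family 9 genes were looked for and 6 were tested. Of these 1 rose and 1 fell, a share of 33.3% beside 55.1% of all tested genes. Arrb2, encoding beta-arrestin 2, rose to 40.8 ± 1.25 CPM in INS-SMA, against 18.9 ± 0.77 CPM in INS-MOCK (log2FC 1.11, edgeR adjusted p = 8.67e-05). The call did not hold from annotated rows only (adjusted p = 0.144) or in the most abundant row (0.239). Vps26b, an arrestin-fold part of the retromer, fell by 0.47 (adjusted p = 0.00376). Arrdc1, an alpha-arrestin of extracellular vesicles, was at 65.6 ± 4.22 CPM in INS-SMA and 61.4 ± 3.65 CPM in INS-MOCK, with an adjusted p of 0.314 (0.0298 from annotated rows only). Dscr3, another retromer-like gene, was at 0.04 on the log2 scale (adjusted p = 0.563), and the sign turned with unnamed rows in the library sizes (-0.01). Arrb1, encoding beta-arrestin 1, was at 44.1 ± 13.2 CPM in INS-SMA and 27.7 ± 3.82 CPM in INS-MOCK, and did not pass (log2FC 0.67, edgeR adjusted p = 0.0648), nor did Vps26a, another retromer gene, at 14.3 ± 9.60 CPM in INS-SMA and 4.23 ± 1.31 CPM in INS-MOCK (1.75, adjusted p = 0.0802). Both passed with DESeq2 (adjusted p = 0.00682 and 0.00966) and without INS-SMA replicate 1 (0.0137 and 0.00450), which brought the count to 4 of 6 genes. The most abundant row of Arrb1 alone gave -1.53 (adjusted p = 0.0133).

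Partners and relatives of MLX changed in both directions, with 6 of 12 tested genes higher, 3 lower and 3 not past the threshold. The 9 that passed, 75%, stand beside 55.1% of all genes, and the median log2FC was 0.82. The lower calls were less steady, with 6 genes higher and 1 lower under the replicate block. Mxd4, named after its values were seen, was at -0.30 (edgeR adjusted p = 0.0403, and 0.0662 with the replicate block). Mnt, a repressor that pairs with MAX and MLX, rose to 197 ± 24.9 CPM in INS-SMA, against 31.5 ± 2.76 CPM in INS-MOCK (log2FC 2.65, SE 0.12, edgeR adjusted p = 2.69e-05). The oncogenic factor genes Mycn (2.64) and Myc (1.52) and the MYC antagonist gene Mxi1 (1.10) rose too. Taken from its most abundant row, Mxi1 did not pass (adjusted p = 0.293). Max, the common partner and named after its values were seen, was at -0.19 (adjusted p = 0.0477), a call lost under 12 of 16 alternatives, with the sign turned in its most abundant row (0.05). Usf2, whose protein binds the same E-box, was at 0.48 (adjusted p = 0.0592, which ran from 0.00540 with DESeq2 to 0.278 over the alternatives). Mga was at 1.87 (adjusted p = 0.167), and -0.09 without INS-SMA replicate 1.

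Of 13 genes of the thioredoxin system and other partners of TXNIP, 12 were tested, and 4 rose and 3 fell. That share was 58.3%, beside 55.1% of all tested genes, and the median log2FC was 0.22. Txnrd1, the cytosolic thioredoxin reductase gene, fell to 187 ± 7.35 CPM in INS-SMA, against 517 ± 20.1 CPM in INS-MOCK (log2FC -1.47, SE 0.047, edgeR adjusted p = 1.04e-05). The mitochondrial thioredoxin gene Txn2 fell by 0.62, while the mitochondrial reductase gene Txnrd2 rose by 0.82. Ddit4, whose product forms a complex with TXNIP and restrains mTOR, rose to 135 ± 6.86 CPM in INS-SMA, against 22.1 ± 3.14 CPM in INS-MOCK (2.61, SE 0.12). Txn1, the thioredoxin gene itself, was below the filter. The ubiquitin ligase gene Nedd4 (3.98, adjusted p = 0.174) rested on INS-SMA replicate 3, without which it was at 0.61, and its adjusted p was 0.0218 with the replicate block. The kinase gene Map3k5 (-0.04) did not pass, and its sign turned with the scaling (0.05 without normalisation factors).

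Of 17 genes of glucose entry and phosphorylation, the source of the signal that ChREBP reads, 13 were tested, and 2 rose and 4 fell. That share was 46.2%, beside 55.1% of all tested genes, and the median log2FC was -0.03. Slc2a1, the basal glucose transporter gene, fell to 36.4 ± 3.90 CPM in INS-SMA, against 79.3 ± 2.56 CPM in INS-MOCK (log2FC -1.12, SE 0.092, edgeR adjusted p = 2.17e-04). G6pc3, a glucose 6-phosphatase gene, fell by 1.01. The glucose 6-phosphate transporter gene Slc37a4 fell by 0.56, but the most abundant row alone gave 0.83 (adjusted p = 0.845), and the call was also lost from annotated rows only (adjusted p = 0.659). Gpi, glucose 6-phosphate isomerase, rose by 0.67. The beta cell glucose transporter gene Slc2a2 varied widely, with 185, 121 and 533 CPM in INS-SMA against 292, 134 and 607 CPM in INS-MOCK, and its difference was not detectable beyond that spread (log2FC -0.30, adjusted p = 0.770, positive without INS-SMA replicate 2 or INS-MOCK replicate 3). Pkm, the other pyruvate kinase gene, was at 1175 ± 44.7 CPM in INS-SMA and 1203 ± 147 CPM in INS-MOCK, with a log2FC of -0.03 whose sign turned without normalisation factors (0.06).

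FOXO factors and the glucocorticoid receptor also induce Txnip and the arrestin-domain genes in other tissues. Of 17 genes in a list of their targets, with the regulators, 14 were tested, and 7 rose and 2 fell. That share was 64.3%, beside 55.1% of all tested genes. The median log2FC was 0.66, beside 0.03 for all tested genes. Klf9, a glucocorticoid-induced factor gene, rose to 270 ± 18.0 CPM in INS-SMA, against 98.6 ± 6.71 CPM in INS-MOCK (log2FC 1.46, SE 0.074). The kinase gene Sgk1 (0.94) and the cyclin gene Ccng2 (0.77) rose, whereas Irs2, an insulin receptor substrate gene, fell by 0.86 (SE 0.036, edgeR adjusted p = 2.01e-05). Foxo4 (0.34) and Sesn3 (-0.50) did not pass (adjusted p = 0.224 and 0.645). Of the glucocorticoid-induced genes Fkbp5 and Tsc22d3, named after their values were seen, neither passed, with log2FC values of 0.23 and 0.60. Fkbp5 was at -0.33 without INS-SMA replicate 3, and Tsc22d3 at -0.43 without INS-SMA replicate 1 and at 2.28 without INS-MOCK replicate 3. The remaining tested genes of this list were also named after their values were seen. Foxo1 (0.93, edgeR adjusted p = 0.00148), Foxo3 (2.75, 0.0389), Zbtb16 (1.06, 0.0273) and Sesn1 (0.41, 0.00688) rose. Trib1 fell (-0.42, 0.0264). Per1 (0.72) did not pass (0.0507), but did with DESeq2 (0.00634). With the replicate block the calls of Foxo3 (0.09999), Zbtb16 (0.0738) and Trib1 (0.0749) were lost.

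The genes nearest to Txnip over the 6 libraries were found from log2 CPM centred on each gene's mean. The nearest was Angptl8, at a root mean square difference of 0.067 log2 units, followed by Gadd45a (0.095), Gadd45b (0.11), Ttc25 (0.11) and Casp4 (0.12). Gadd45a and Gadd45b encode stress-induced regulators of growth arrest, and Casp4 encodes an inflammatory caspase. Gadd45a was at 215, 228 and 258 CPM in INS-SMA, against 13.9, 13.5 and 16.6 CPM in INS-MOCK. Gadd45b was at 247, 244 and 231 CPM in INS-SMA, against 14.4, 13.2 and 12.7 CPM in INS-MOCK. With 2 groups of 3, this likeness mostly says that their fold change was close to that of Txnip, and the log2FC values ran from 3.99 to 4.16. That of Casp4 was 3.12 in its most abundant row.

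**Figure D4:**
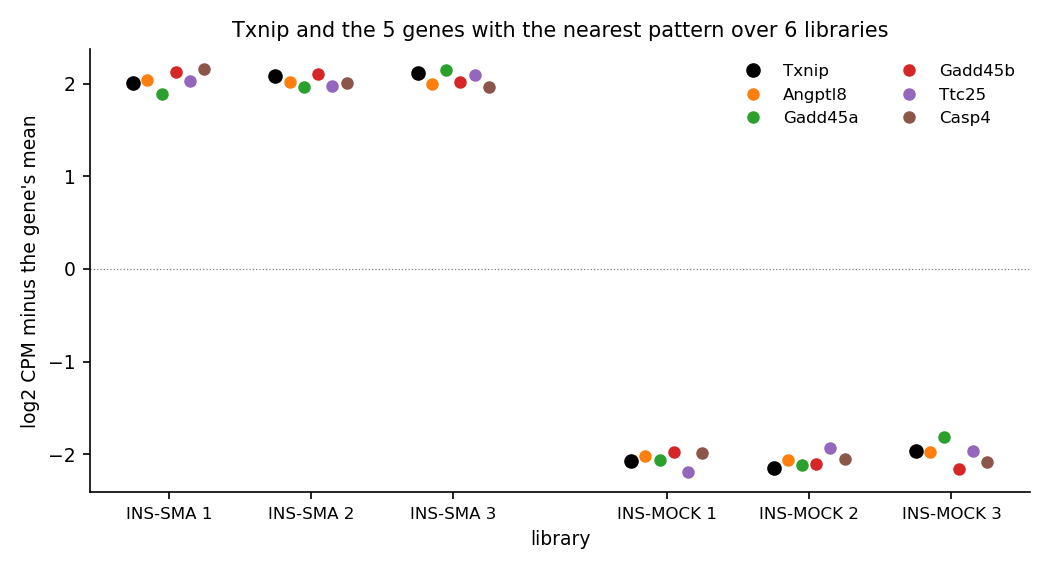
Log2 CPM minus the gene's mean over 6 libraries for Txnip (black) and the 5 genes with the smallest root mean square difference from it, in the INS-SMA and INS-MOCK libraries. All 6 genes lie near 2 in INS-SMA and near -2 in INS-MOCK, and Angptl8 stays closest to Txnip.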

How the data were processed

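RNA sequencing of 3 INS-SMA and 3 INS-MOCK libraries was used. The authors deposited raw counts, whole numbers per transcript row, per the file headers, with no pooling. The tools named in the submitters' processing notes are HISAT2, HISAT and DESeq2 and the builds are hg19 and rn6, all without roles. Which counter, strand setting and annotation were used is not given in the sources at hand. Of 101905 rows, 66301 name no gene and entered neither the library sizes nor the tests. Counts were summed per gene, and edgeR 4.0.16 (filterByExpr, TMM factors, glmQLFit and glmQLFTest, group as the only term) tested 13363 genes with Benjamini-Hochberg adjustment at 0.05. The SE is the size of the log2FC divided by the square root of F. CPM use the counts in tested genes times the TMM factor as the library size. Levels were compared between groups and not between genes, since the table gives no transcript lengths. The 3 libraries of a group are described as biological replicates, and they differed beyond sampling noise, with chi-square values of 45.0 to 58.6 per degree of freedom; whether they came from separate cultures is not stated, so p-values measure the spread between these libraries. Floors of 3 counts cover counting error only.

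The 7 genes and the lists were chosen with earlier results of these data known. Named from each list were the 4 genes with the smallest adjusted p and the 2 most abundant that did not pass, and the 5 genes with a mean of at least 5 CPM and no library at 0 that lay nearest to Txnip. For a symbol with several genes the most abundant was used. The edgeR and DESeq2 1.42.0 scripts were tested on simulated data. Alternatives were other normalisation factors, filters and library sizes, DESeq2, single transcript rows, a replicate block and leaving out each library; annotated rows only was added after the rows were seen. Adding unnamed rows that overlap a gene was not run, since those rows carry no coordinates. Libraries with the same replicate number were not correlated in their deviations from group means (-0.028 to -0.013). With 3 libraries per group this does not settle whether they were paired. Promoter sequences are from RefSeq (GRCr8). Coordinates of genes follow the deposited table. Values of some single genes in the lists are not reported here. The R version was 4.3.3.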

Additional observations from a re-analysis of the deposited data

How the results depend on the processing

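The log2FC values of Txnip, Arrdc4, Arrdc3 and Mlx kept their sign under all 16 alternatives, and those of Arrdc3 and Mlx stayed within their spread between replicates. Without normalisation factors Txnip was at 4.22 and Pklr at 1.62. Transcript rows taken one by one put Arrdc4 at 2.38 and turned Pklr to -0.22; annotated rows alone put them at 0.19 and 2.19. The cause was not tested beyond the shifts between rows given above. Leaving out 1 library gave 4.08 to 4.18 for Txnip, 1.28 to 1.48 for Arrdc4, -1.95 to -1.81 for Arrdc3, 0.54 to 0.81 for Mlx and 1.495 to 1.578 for Pklr. The number of genes past the threshold was 7359, and 5111 to 8300 over the alternatives. ChREBP targets past it numbered 14 (12 to 17), MLX and MAX network genes 9 (6 to 10) and thioredoxin system genes 7 (6 to 9). Arrestin family genes numbered 2, and 4 with DESeq2; leaving out 1 library gave 2 to 4. Glucose entry genes numbered 6, and 3 from annotated rows only. FOXO and glucocorticoid targets numbered 9, 5 as single rows and 6 with the replicate block, and leaving out 1 library gave 6 to 10. With the replicate block, 6294 genes passed and Txnip was at 4.13, while the labels link these samples only by replicate number. Among the list genes named in the report the block changed the calls of Max (adjusted p = 0.0988), Arrb1 (0.0278), Nedd4, Mxd4, Foxo3, Zbtb16 and Trib1. Depth limited Arrdc2 and left Arrdc3 at 35 to 201 counts.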

Other observations

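The 17-base carbohydrate response element consensus, a looser form of the element in Pklr, was present within 250 bases before 19 of 27457 rat genes in RefSeq. Of these, 7 were tested, Pklr among them. Of the other 6, the Notch target gene Hes1 (log2FC 2.81, edgeR adjusted p = 8.41e-05) and Insig2, a brake on sterol synthesis (0.66, adjusted p = 0.0331), rose. Smim7 (-0.62, adjusted p = 2.17e-04) and the kinase gene Irak1 (-0.56, adjusted p = 0.0459) fell. Nup62 (0.09, adjusted p = 0.887) and Tnfaip3 (0.02, adjusted p = 0.980) did not pass. These genes were chosen after the data were seen.

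Tested genes beside Txnip on chromosome 2 had smaller log2FC values than its 4.13. Polr3gl, which starts 15613 bases after the end of Txnip and encodes a subunit of RNA polymerase III, was at 3.60 ± 0.255 CPM in INS-SMA, against 5.45 ± 0.917 CPM in INS-MOCK (log2FC -0.60, edgeR adjusted p = 0.0490). Ankrd34a, 34750 bases after Txnip, was at 0.73 (adjusted p = 0.168), with 0.62 ± 0.18 CPM in INS-SMA and 0.37 ± 0.11 CPM in INS-MOCK. On the other side the histone gene Hist1h2ao, 270809 bases before Txnip, rose by 1.54 (adjusted p = 0.0119). It was at 0.97 ± 0.063 CPM in INS-SMA, against 0.33 ± 0.12 CPM in INS-MOCK. The nearer AABR07012583.2 was at 2.36 (adjusted p = 0.0574), with 0.61 ± 0.16 CPM in INS-SMA and 0.11 ± 0.11 CPM in INS-MOCK. Such low levels rest on few counts, since 3 counts correspond to 0.117 to 0.180 CPM. The adhesion receptor gene Adgrv1, 183781 bases after Arrdc3, rose to 225 ± 7.51 CPM in INS-SMA, against 16.6 ± 2.34 CPM in INS-MOCK (3.76, SE 0.12), although Arrdc3 was lower in INS-SMA. The next tested genes around Arrdc3 lay farther off. Lysmd3, 783140 bases after it, was at 0.21. Before it, Nr2f1 at a distance of 3153038 bases was at 0.08, and Fam172a at 3187788 bases was at -0.32.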
